A study of Mus musculus with 4 samples.

Results

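The heavy-chain variable segments (Ighv genes) of the mouse were examined in B-lineage cells of the Peyer's patch, the lymphoid tissue of the small intestine wall. Every gene whose symbol starts with Ighv and that had at least 1 UMI (unique molecular identifier, 1 counted transcript) over the 4 libraries was taken. This gave 123 segments of the 185 Ighv genes listed among 31053 genes. The 4 libraries hold CD45+ cells of wild-type female Taconic mice, 5 mice pooled per group, that either carried segmented filamentous bacteria (SFB-positive, 2 libraries) or did not (SFB-negative, 2 libraries). SFB are gut bacteria that attach to the wall of the small intestine. The deposited table lists 22569 cells, 4050 and 7731 of SFB-negative replicates 1 and 2 and 3408 and 7380 of SFB-positive replicates 1 and 2, in clusters numbered 0 to 6. The labels do not say whether the libraries of a group came from separate mice, so the spread between them may be technical.

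An antibody heavy chain is encoded by 1 variable, 1 diversity and 1 joining segment that are joined in the DNA of each developing B cell, followed by a constant gene. A naive B cell and its descendants keep the same variable segment, so cells that descend from 1 founder share it, although unrelated cells can also share it. In a germinal centre, activated B cells divide, mutate their variable regions and can switch from Ighm to another constant gene such as Ighg1, Ighg2b or Igha (the constant gene of IgA, the main antibody of the gut). Plasma cells secrete antibody and hold very large amounts of its mRNA.

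The files stand apart by replicate number. Both replicate 1 libraries have Cell Ranger 6.0.0 in their headers and 15 antibody tags, and both replicate 2 libraries have 7.0.0 and no tags. Replicate 1 was also shallower, with a median of 1267 and 1280 UMIs per table cell (SFB-negative and SFB-positive) against 3252 and 5863.5 in replicate 2. Table cells of replicate 1 held 51 (SFB-negative) and 61 (SFB-positive) Ighv UMIs, against 3193 and 2464 in replicate 2. Segment usage could therefore be compared with useful numbers of cells only between SFB-negative replicate 2 and SFB-positive replicate 2, 1 library each. Such a comparison has no replicate check and is given without a test. Cell barcodes shared between libraries numbered 30 for the replicate 1 pair and 40 for the replicate 2 pair. Of the 40, 1 had a leading segment in both libraries, and it was not the same segment.

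The deposited clusters were checked against marker genes. In clusters 0 to 2 all 5 naive B-cell markers used, among them Fcer2a, Ccr7 and Ighd, were detected, with a summed level of 1294 to 3668 CPM against 176 to 409 CPM in cluster 3, and these clusters are called naive-like. CPM are counts per 1000000 UMIs of the cells. Cluster 3 is called germinal-centre-like: the summed level of 8 germinal-centre markers, among them Bcl6 and Rgs13, was 1674 to 2400 CPM. Cluster 6 is called plasma-like, with 24527 to 66380 CPM summed over 7 plasma-cell markers, among them Jchain and Xbp1. Clusters 4 and 5 are given by number. In cluster 4 the naive markers summed to 819 to 2041 CPM, which overlaps the naive-like range. Within each library that sum was below those of clusters 0 to 2. All 5 naive markers were also detected in clusters 3 and 4 of each library. Cluster 5 had germinal-centre markers at 1915 and 2272 CPM in replicate 2, but a median of only 1288.5 and 1115 UMIs per cell. T-cell markers summed to at most 96 CPM in any cluster. Ighv genes may have helped to form the clusters, so differences between clusters are described without a test.

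Among the segments, Ighv1-47 (ENSMUSG00000076709, chromosome 12, 114991108 to 114991580, minus strand, GRCm38) led more germinal-centre-like cells of SFB-negative replicate 2 than any other. Its sequence is shown with those of Ighv1-53, its closest relative among the coding segments counted, Ighv1-64, a common segment of naive-like cells, and Ighv9-3, the leading segment of the same cluster in SFB-positive replicate 2. Each is the end of the exon that encodes the variable region, read 5′ to 3′ on the minus strand from the GENCODE vM21 transcripts (GRCm38). Capitals mark bases that differ from Ighv1-47, and in Ighv1-47 those that differ from Ighv1-53.
Ighv1-47: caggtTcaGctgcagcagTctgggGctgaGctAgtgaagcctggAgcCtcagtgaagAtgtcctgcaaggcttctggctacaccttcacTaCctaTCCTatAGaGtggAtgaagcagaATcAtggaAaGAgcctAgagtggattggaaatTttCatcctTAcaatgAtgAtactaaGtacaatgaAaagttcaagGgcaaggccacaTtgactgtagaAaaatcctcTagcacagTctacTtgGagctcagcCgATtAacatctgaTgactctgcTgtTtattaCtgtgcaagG
Ighv1-53: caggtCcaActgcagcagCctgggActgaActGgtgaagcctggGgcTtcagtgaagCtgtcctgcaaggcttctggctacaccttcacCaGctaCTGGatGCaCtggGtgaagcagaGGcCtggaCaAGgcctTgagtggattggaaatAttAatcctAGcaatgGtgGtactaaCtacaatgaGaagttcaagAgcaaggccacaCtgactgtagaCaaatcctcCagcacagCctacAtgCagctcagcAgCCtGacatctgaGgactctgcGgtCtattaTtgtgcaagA
Ighv1-64: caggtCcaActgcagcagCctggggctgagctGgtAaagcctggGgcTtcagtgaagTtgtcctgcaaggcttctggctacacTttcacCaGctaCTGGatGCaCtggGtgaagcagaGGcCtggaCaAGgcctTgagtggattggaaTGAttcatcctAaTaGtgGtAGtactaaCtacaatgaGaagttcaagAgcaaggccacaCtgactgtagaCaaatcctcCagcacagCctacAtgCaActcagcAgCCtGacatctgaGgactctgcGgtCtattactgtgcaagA
Ighv9-3: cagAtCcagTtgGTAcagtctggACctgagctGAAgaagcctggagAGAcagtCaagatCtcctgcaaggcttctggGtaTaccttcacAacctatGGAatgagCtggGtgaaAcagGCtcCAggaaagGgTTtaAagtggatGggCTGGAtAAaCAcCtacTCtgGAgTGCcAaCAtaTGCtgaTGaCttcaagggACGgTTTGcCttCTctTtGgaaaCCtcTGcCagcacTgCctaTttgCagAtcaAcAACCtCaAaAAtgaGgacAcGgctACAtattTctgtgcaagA
These 294 bases lie at chr12:114991108-114991401, chr12:115158403-115158696, chr12:115507545-115507838 and chr12:114140692-114140985. Over them Ighv1-53 was 83.0% identical to Ighv1-47, Ighv1-64 82.0% and Ighv9-3 66.1%.

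How far reads can be told apart between segments depends on these sequences. Among 104 members annotated as coding variable segments, the median identity of the variable exon to the closest other member was 95.2%, and 57 members had a relative at 95% or more. Ighv1-62-2 and Ighv1-71 had identical exons, with 4 and 51 UMIs in table cells, so their counts are uncertain. Ighv1-62-3 and Ighv1-72 differed at 3 bases. Ighv1-47 was far from its relatives: over the whole exon its closest member, Ighv1-53, was 83.6% identical, with 50 differences. The median of the 49 coding Ighv1 members compared was 96.1%, and only 2 of them had a lower value than Ighv1-47. Ighv1-53 itself had 90 UMIs in table cells, against 602 for Ighv1-47.

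All 123 members matched the annotation and lie on chromosome 12 between 113578504 and 116000461. They fall into 15 families, of which Ighv1 is the largest with 63 members. Coding segments made up 104 members and pseudogenes 18, and pseudogenes held 84 of 5769 Ighv UMIs in table cells, 31 of them from Ighv4-2. Of 62 Ighv genes with no UMI, 52 are pseudogenes. Among the members, 12 had a total of 1 UMI, 86 had at least 10, and 116 led at least 1 table cell. The number detected was 33 and 39 in replicate 1 (SFB-negative and SFB-positive) and 113 in each replicate 2 library. The 10 segments with most UMIs in table cells (Ighv1-47, Ighv3-6, Ighv1-64, Ighv1-15, Ighv2-9-1, Ighv1-26, Ighv9-3, Ighv6-3, Ighv1-82 and Ighv2-2) held 36.1% of them.

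Few cells had an Ighv UMI. The variable segment lies at the 5′ end of the transcript and these libraries read its 3′ end. The part of this in the shares below was not tested. In all table cells the share with an Ighv UMI was 1.23% (95% exact binomial interval 0.918 to 1.62) in SFB-negative replicate 1, 24.1% (23.2 to 25.1) in SFB-negative replicate 2, 1.73% (1.32 to 2.23) in SFB-positive replicate 1 and 18.4% (17.5 to 19.3) in SFB-positive replicate 2. Intervals here cover counting error only. The mean was 12.7 ± 16.2% without SFB and 10.1 ± 11.8% with SFB (SD, n = 2 each, exact permutation p = 1.00, 2-sided, adjusted p = 1.00 over 8 classes of cells). With 2 libraries against 2 this test cannot go below 0.33. The replicate numbers differed far more than the groups, and within a number the SFB-positive library was 0.497 percentage points higher in replicate 1 and 5.78 lower in replicate 2. When each cell was thinned to 1000 UMIs the shares were 0.960, 7.55, 1.22 and 3.22%, in the same order of libraries. T-cell barcodes outside the table, which should lack Ighv transcripts, had an Ighv UMI in 0 of 234, 0.383% of 784, 0 of 250 and 0.203% of 984. Their median depths were 1584, 3487.5, 1425 and 6485 UMIs, above those of the table cells in each library. Of the 3 Ighv UMIs in T-cell barcodes of SFB-negative replicate 2, 2 were of Ighv1-47.

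The shares differed by cluster in replicate 2. In cluster 0 they were 1.16, 21.7, 1.69 and 20.6% (SFB-negative 1 and 2, then SFB-positive 1 and 2). In cluster 1 they were 1.37, 21.0, 1.5 and 14.7%, and in cluster 2 they were 1.92, 21.2, 2.17 and 19.1%. In germinal-centre-like cluster 3 the share was 42.6% (38.9 to 46.3) of 719 cells in SFB-negative replicate 2 and 16.5% (14.0 to 19.2) of 830 cells in SFB-positive replicate 2. Replicate 1 had none in 148 SFB-negative cells, which allows a share of up to 2.03% by 3 counts of the total (exact binomial upper bound 2.46%). It had none in 203 SFB-positive cells, which allows up to 1.48% (exact upper bound 1.80%). The SFB-positive replicate 2 cells were the deeper ones, with a median of 17122 UMIs against 7359. Over both groups the difference in cluster 3 was within the spread between replicates (exact permutation p = 1.00). In cluster 4 the shares were 0 of 124 cells, 27.0, 3.29 and 22.7%, and in cluster 6 they were 0 of 6 cells, 30 of 30, 3 of 24 and 64 of 68.

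**Figure D1:**
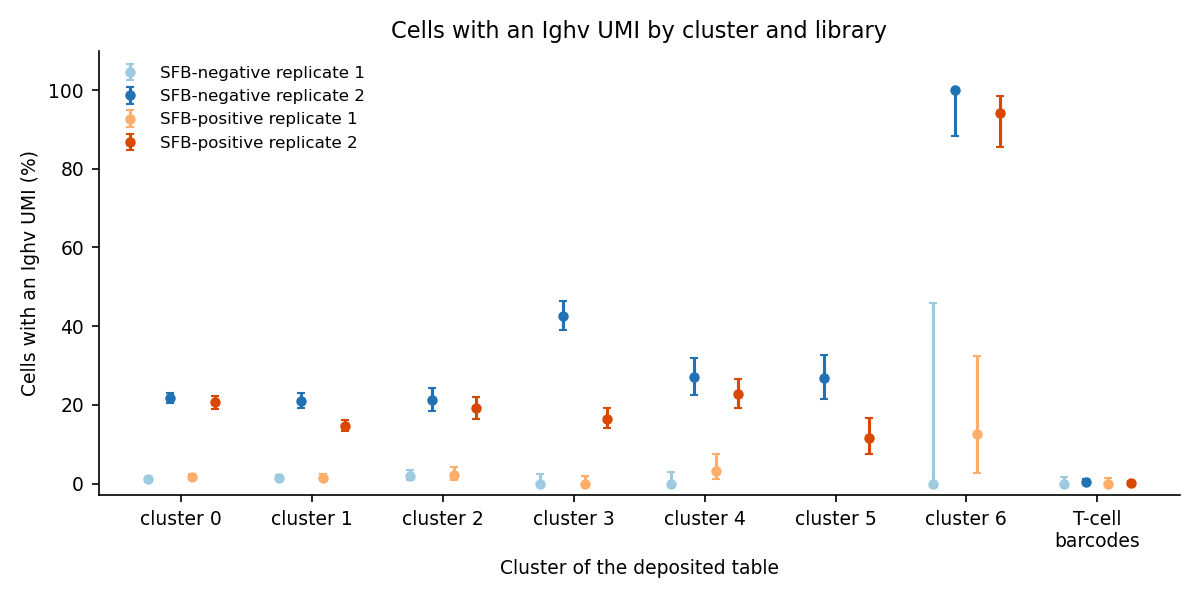
Percent of cells with at least 1 Ighv UMI (vertical axis) in each cluster of the table and in T-cell barcodes outside it, for the 4 libraries. Points are shares and bars 95% exact binomial intervals; groups of under 6 cells are not drawn. Both replicate 1 libraries lie near 0 in clusters 0 to 4 and have no point in cluster 5, and cluster 3 has 42.6% in SFB-negative replicate 2 against 16.5% in SFB-positive replicate 2.

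The same pattern was seen relative to other antibody transcripts. Per 1000 UMIs of heavy-chain constant genes, naive-like cells had 2.30 and 65.1 Ighv UMIs in SFB-negative replicates 1 and 2 and 2.84 and 19.2 in SFB-positive replicates 1 and 2. UMIs of light-chain variable segments followed the same order, with 3.93, 100, 5.57 and 20.4 per 1000 heavy constant UMIs. In cluster 3 the Ighv values were 0, 86.4, 0 and 6.25, and the light-chain values were 5.19, 231, 7.21 and 34.0. The 2 replicate 2 libraries therefore also differed in how many variable-segment UMIs they held per constant-gene UMI. In CPM, Ighv was 2.20 times higher in SFB-negative than in SFB-positive replicate 2 in naive-like cells and 6.92 times higher in cluster 3, and without Ighv1-47 the latter was 4.03 times. Light-chain variable segments were 3.22 and 3.41 times higher in the same cells. The shares that follow are of cells with a leading segment, and which cells have one depends on this level and on depth.

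The leading segment of a cell is the Ighv gene with most UMIs in it, and cells with ties were left unassigned. Naive-like cells used a broad set that the replicate 2 libraries shared. In SFB-negative replicate 2, 1289 naive-like cells had a leading segment, most often Ighv1-82 and Ighv9-3 (54 cells each), Ighv1-26 (53), Ighv1-64 (52) and Ighv1-81 (43). In the SFB-positive library 994 cells had one, most often Ighv1-64 (41), Ighv1-9 (37), Ighv1-26 (36), Ighv1-82 (35), Ighv1-81 (34) and Ighv1-80 (32). Over the 4 libraries 112 segments led 2383 naive-like cells. The 10 most frequent were Ighv1-64 and Ighv1-82 (97 cells each), Ighv1-26 (92), Ighv9-3 (81), Ighv1-81 (78), Ighv1-80 (71), Ighv1-9 (70), Ighv5-4 (61), Ighv8-8 (60) and Ighv2-2 (59). Together they led 32.1% of these cells.

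Across 112 segments, the shares in naive-like cells of the replicate 2 libraries had a Pearson correlation of 0.91 and a Spearman correlation of 0.87. These describe 1 pair of libraries of the same strain, and segments are not replicates. The shared usage, the sum over segments of the smaller of the 2 shares, was 83.5%. The chance that 2 cells drawn from a library had the same leading segment is used here as a measure of dominance. In naive-like cells it was 2.38% (SFB-negative replicate 1), 1.89% (SFB-negative replicate 2), 2.12% (SFB-positive replicate 1) and 1.78% (SFB-positive replicate 2). The group means were 2.13 ± 0.349% and 1.95 ± 0.238% (SD, n = 2 each, exact permutation p = 0.667, adjusted p = 0.667 over 5 classes of cells), and the ranges overlapped.

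**Figure D2:**
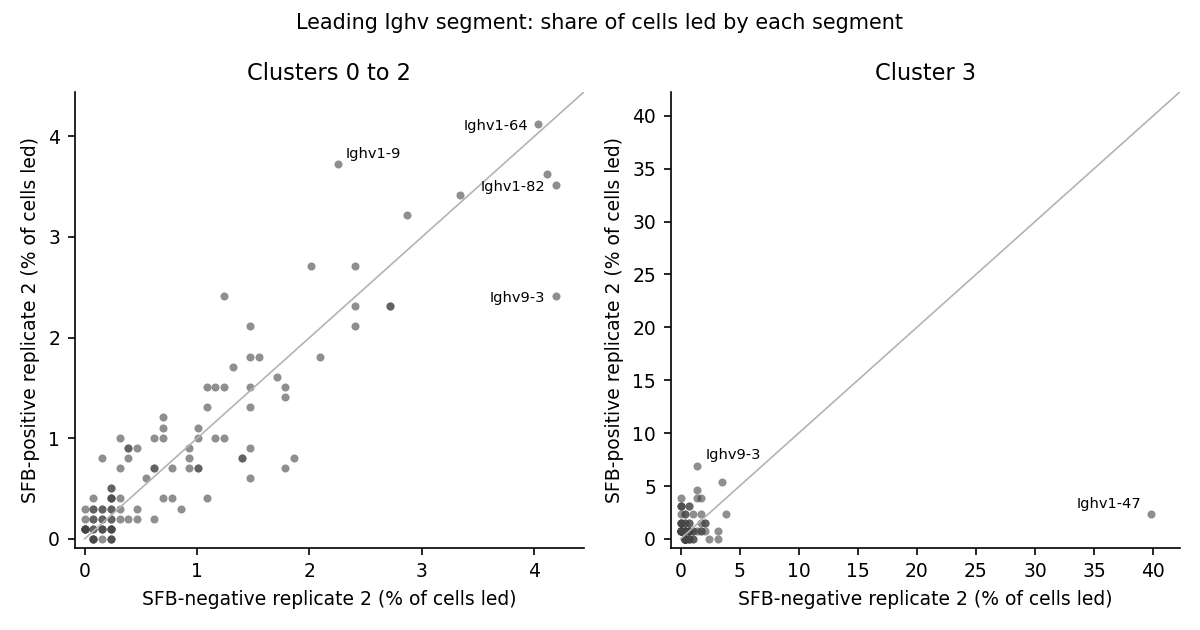
Each point is 1 Ighv segment, with its share of cells led in SFB-negative replicate 2 (horizontal axis, percent) and in SFB-positive replicate 2 (vertical axis, percent), for clusters 0 to 2 (left) and cluster 3 (right); the line marks equal shares and the panels differ in scale. Segments of naive-like cells lie along the line, and in cluster 3 Ighv1-47 stands alone at 39.9% against 2.31%.

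Of the 719 germinal-centre-like cells of SFB-negative replicate 2, 286 had a leading segment, and these were dominated by 1 segment. Ighv1-47 led 114 of 286 cells, 39.9% (34.1 to 45.8), and held 214 of 486 Ighv UMIs, 44.0%, with at most 8 in any cell. The SFB-positive replicate 2 library had 3 of 130 such cells, 2.31%, with 7 UMIs. In replicate 1 no cluster 3 cell had an Ighv UMI of any segment, so neither of those libraries bears on it. The level of Ighv1-47 in cluster 3 was 37.0 CPM in SFB-negative replicate 2 and 0.473 CPM in SFB-positive replicate 2. It was 0 in the other libraries, where 3 UMIs would have given 4.40 CPM (SFB-negative replicate 1) and 3.17 CPM (SFB-positive replicate 1). The chance that 2 cluster 3 cells shared their leading segment was 16.6% in the SFB-negative and 1.96% in the SFB-positive replicate 2 library. Over the 172 SFB-negative cells led by any other segment it was 2.31%, spread over 62 segments. With at least 2 UMIs required of the leading segment the values were 28.6% and 5.63%.

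Ighv1-47 took a smaller share of the naive-like cells of that library. It led 12 of 786 cells of cluster 0, 5 of 351 of cluster 1 and 2 of 152 of cluster 2, together 1.47% of 1289, and 6 of 994 naive-like cells of SFB-positive replicate 2. In cluster 4 it led 5 of 93 and 2 of 107 cells. In cluster 5 it led 36 of 63 cells of SFB-negative replicate 2, 57.1% (44.0 to 69.5), with 59 of 111 Ighv UMIs, and none of 24 cells of SFB-positive replicate 2. The chance of a shared leading segment in cluster 5 was 32.4% and 1.81%. SFB-positive replicate 1 had no cell in cluster 5 and SFB-negative replicate 1 had 1. Over all table cells Ighv1-47 led 179 of 1761 and 11 of 1317 cells in the replicate 2 libraries and none of 49 and 59 in replicate 1.

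**Figure D3:**
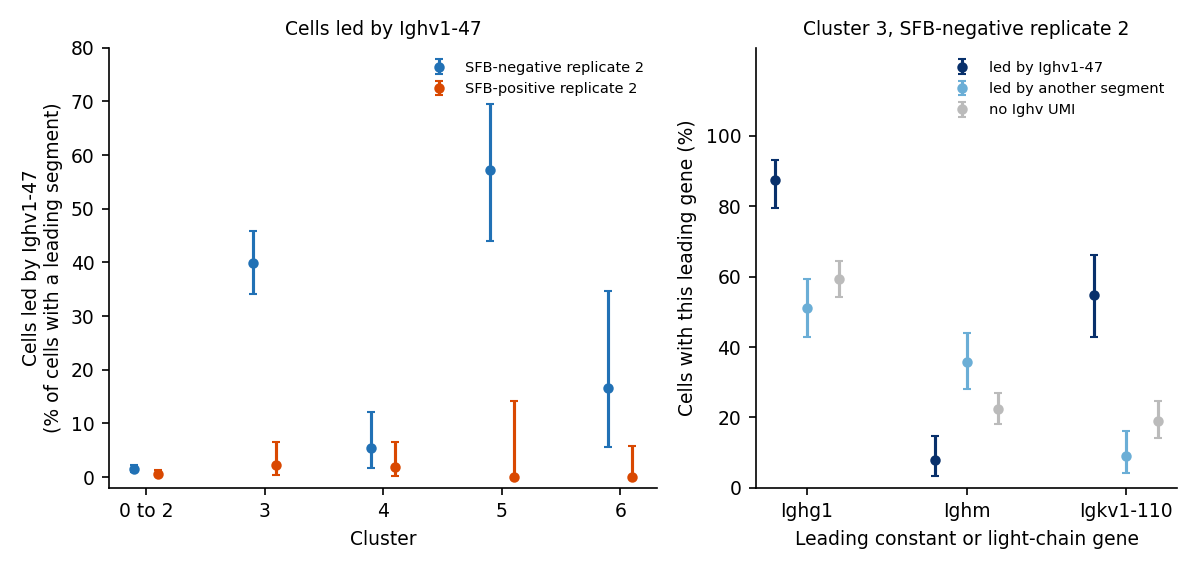
Left, percent of cells led by Ighv1-47 among cells with a leading segment, by cluster, in the replicate 2 libraries; right, percent of cluster 3 cells of SFB-negative replicate 2 whose leading constant gene was Ighg1 or Ighm, or whose leading light-chain variable segment was Igkv1-110, for cells led by Ighv1-47, led by another segment, or with no Ighv UMI. Points are shares and bars 95% exact binomial intervals. Ighv1-47 led 39.9% of cluster 3 and 57.1% of cluster 5 in the SFB-negative library, and Igkv1-110 led in 54.7% of Ighv1-47 cells against 8.91% of cells led by other segments.

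Cells led by Ighv1-47 in cluster 3 of SFB-negative replicate 2 also shared other antibody genes. Ighg1, the constant gene of IgG1, led in 90 of 103 of them with a leading constant gene, 87.4% (79.4 to 93.1), against 77 of 151 cells led by other segments, 51.0% (42.7 to 59.2). It led in 59.4% of cells with no Ighv UMI. Ighm led in 7.77, 35.8 and 22.3% of the same sets. The light-chain segment Igkv1-110 led in 41 of 75 Ighv1-47 cells, 54.7% (42.7 to 66.2), against 9 of 101 other cells, 8.91% (4.16 to 16.2), and 43 of 226 cells with no Ighv UMI, 19.0%. A further light segment, Igkv2-137, led in 7 of the 75 and in none of the 101. Over all cluster 3 cells with a leading light segment, Igkv1-110 led in 98 of 413 in SFB-negative replicate 2, 23.7%, and 37 of 349 in SFB-positive replicate 2, 10.6%. In naive-like cells it led in 7.17% and 9.79%. Replicate 1 had it in none of 13 and 20 cluster 3 cells (SFB-negative, then SFB-positive). It also had it in none of 85 and 100 naive-like cells, so replicate 1 does not bear on an excess in cluster 3.

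Levels of germinal-centre genes in the Ighv1-47 cells were read as sums over the cells. Their median depth was 8160.5 UMIs, against 7903.5 in cells led by other segments and 6890 in cells with no Ighv UMI. Mki67, a marker of dividing cells, was at 293, 241 and 192 CPM in these sets, and Rgs13, a germinal-centre signalling regulator, at 446, 446 and 501 CPM. At least 2 Ighv1-47 UMIs were present in 51 of the 114 cells. The 19 naive-like cells led by Ighv1-47 differed from them in antibody genes: Ighm led in 11 of 15 and Ighg1 in none, and Igkv1-110 led in none of 6. In cluster 5, Ighg1 led in 18 of 26 and Igkv1-110 in 6 of 10 Ighv1-47 cells. The mice were pooled before sequencing, so how many of the 5 mice gave these cells cannot be told apart, and whether the cells descend from 1 founder was not tested.

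Pairs of a heavy and a light segment showed the same concentration. In cluster 3 of SFB-negative replicate 2, 176 cells had both a leading heavy and a leading light segment, in 102 different pairs. Of these pairs 20 were found in more than 1 cell and took in 94 cells, 53.4%. The SFB-positive library had 73 cells, 68 pairs and 4 shared pairs with 9 cells, 12.3%. In naive-like cells 18.1% of 371 and 13.4% of 172 cells were in shared pairs. The numbers of cells differ, and a larger set holds more repeats. The largest pair was Ighv1-47 with Igkv1-110 in 41 cells, of which 31 had Ighg1 as leading constant gene. Next were Ighv1-47 with Igkv2-137 (7 cells, all Ighg1), Ighv1-64 with Igkv1-117 (5 cells) and Ighv1-47 with Igkv15-103 (4 cells).

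Most cells led by Ighv1-47 had Ighg1 as constant gene. In cluster 3 of SFB-negative replicate 2, 167 of 401 Ighg1 cells had a leading segment, in 35 segments, and Ighv1-47 led 90 of them, 53.9%. The chance of a shared segment was 29.6% among Ighg1 cells and 2.86% among 62 Ighm cells, which used 38 segments and of which Ighv1-47 led 8. It was 19.4% among 9 Ighg2b cells, of which Ighv1-53 led 4, and 8.89% among 10 Igha cells, of which Ighv1-47 led 3. Only 9 Ighg1 cells of SFB-positive replicate 2 had a leading segment, each a different one. Its 49 Igha cells used 30 segments, led by Ighv9-3 in 7 (chance of sharing 3.40%), and its 29 Ighg2b cells used 25, none in more than 2 cells (0.99%). Its 40 Ighm cells used 27 (2.56%).

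The other leading segments of cluster 3 were each in few cells. In SFB-negative replicate 2 they were Ighv1-64 (11 of 286), Ighv3-6 (10), Ighv1-53 (9), Ighv5-17 (9) and Ighv1-12 (7). Ighv9-3 came first in SFB-positive replicate 2 with 9 of 130 cells, 6.92%, and 20 UMIs, 9 of them in 1 cell. It was followed by Ighv3-6 (7) and Ighv1-26 (6). Shared usage between the replicate 2 libraries was 36.6% in cluster 3 and 46.5% when Ighv1-47 was left out, against 83.5% in naive-like cells. Fewer cells can lower this measure, and the part of cell number was not tested. Cluster 4, with 93 and 107 cells, had 49.5%. Its leading segments were Ighv6-3 (7 cells) in the SFB-negative and Ighv1-9 (7 cells) in the SFB-positive library. The chance of sharing in cluster 4 was 2.03% and 1.96%, near that of naive-like cells.

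Plasma-like cells of cluster 6 held the most Ighv UMIs per cell, and most cells held 1 segment. The 30 cells of SFB-negative replicate 2 had 1 to 166 Ighv UMIs, with a median of 15, and the 68 cells of SFB-positive replicate 2 had 0 to 79, with a median of 9. The 6 cells of SFB-negative replicate 1 had none and the 24 of SFB-positive replicate 1 had 0 or 1. Among cells with at least 3 Ighv UMIs, 15 of 21 in SFB-negative replicate 2, 71.4% (47.8 to 88.7), and 44 of 57 in SFB-positive replicate 2, 77.2% (64.2 to 87.3), held UMIs of a lone segment. In 19 and 51 of these cells the leading segment had at least 80% of the Ighv UMIs. A second segment with at least 2 UMIs was found in 4 and 6 cells. In naive-like cells with at least 3 Ighv UMIs a lone segment was found in 53.6% of 28 and 52.4% of 21 cells, and in cluster 3 in 68.3% of 41 and 83.3% of 6. The naive-like clusters were not alike in this. A lone segment was found in 9 of 13 and 8 of 11 such cells of cluster 0 but in 2 of 10 and 1 of 8 of cluster 1. Doublets were not called, and their part in cells with several segments was not tested.

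**Figure D4:**
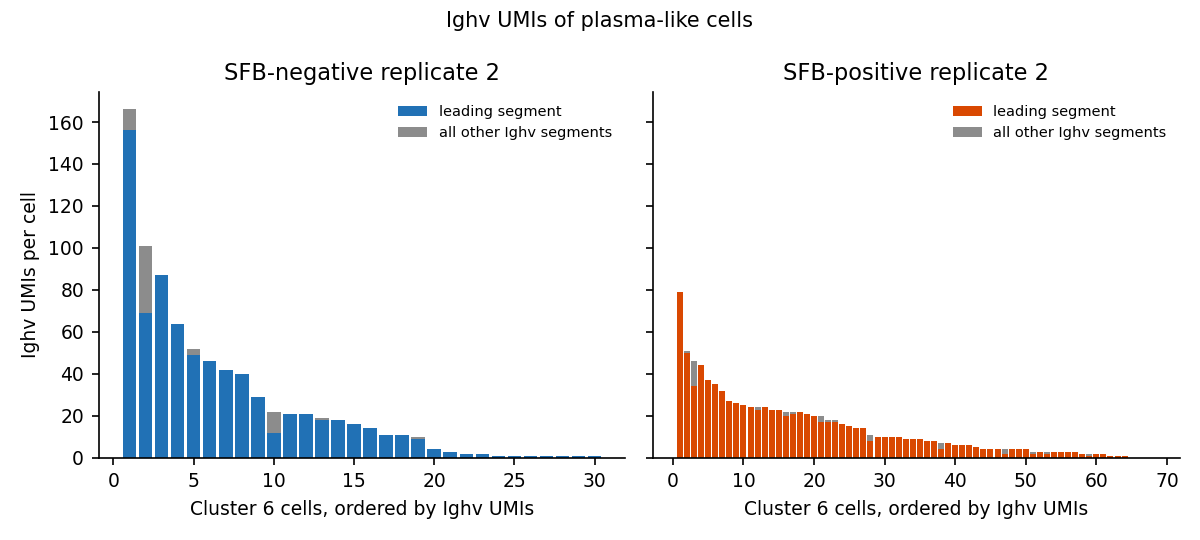
Ighv UMIs (vertical axis) in each cluster 6 cell of the replicate 2 libraries, ordered from most to fewest; the coloured part of a bar is the leading segment and the grey part all other Ighv segments. Grey parts are small in most cells, and the highest cell has 156 Ighv1-47 UMIs of 166.

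Single plasma-like cells carried much of the total. The highest cell of SFB-negative replicate 2 had 156 of 166 Ighv UMIs from Ighv1-47, with Igkv1-110 as leading light segment and Ighg1 as constant gene. Others had 87 of 87 from Ighv2-9-1 (with Igkv4-80 and Igha), 69 of 101 from Ighv1-77, 64 from Ighv10-1 (with Iglv1 and Ighm) and 46 from Ighv1-15 (with Igkv8-24 and Igha). The highest cells of SFB-positive replicate 2 had 79 UMIs from Ighv6-6 (with Iglv1 and Ighg3), 50 of 51 from Ighv1-71 (with Iglv1 and Ighg2b) and 44 from Ighv1-15. By UMIs Ighv1-47 held 272 of 808 in SFB-negative replicate 2, 33.7%, but 18.1% without its highest cell. By cells it led 5 of 30. In SFB-positive replicate 2 Ighv3-6 held 11.3% of UMIs (105) and led 5 of 62 cells, ahead of Ighv1-26 and Ighv1-55 (4 each), and Ighv1-47 had 1 UMI.

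The constant genes of plasma-like cells are given beside their segments. In SFB-positive replicate 2, 30 of 68 cells had Ighg2b as leading constant gene and 19 Igha. In SFB-negative replicate 2, 2 of 30 had Ighg2b, 7 Ighg1, 9 Igha and 11 Ighm. The 27 Ighg2b cells with a leading segment used 24 segments, at most 3 cells sharing Ighv1-55, and the 19 Igha cells used 14, of which Ighv3-6 led 3. The chance of a shared segment in cluster 6 was 3.91% in SFB-negative and 1.85% in SFB-positive replicate 2. Pairs shared by 2 cells included Ighv1-15 with Igkv8-24 and Ighv1-26 with Igkv4-57 (SFB-negative, both Igha), Ighv1-20 with Igkv1-110 (SFB-positive, Ighg2b) and Ighv1-78 with Igkv6-32 (SFB-positive, Igha). The SFB-negative library also had Ighv1-47 with Igkv1-110 (Igha and Ighg1) and with Igkv3-5 (Ighg1). The SFB-positive library also had Ighv7-3 with Igkv1-117 (Igha and Ighg2b) and Ighv8-12 with Iglv1 (Ighg2b and Ighm).

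Families and positions along the locus followed the leading segments. The Ighv1 family, the largest, led 56.4% of all cells with a leading segment, Ighv5 9.92% and Ighv2 6.59%. In naive-like cells Ighv1 led 54.9% in SFB-negative and 56.8% in SFB-positive replicate 2. In cluster 3 it led 67.8% and 52.3%, in cluster 4 35.5% and 51.4%, and in cluster 6 73.3% and 54.8%. Ighv9 led 2.80% and 10.0% of cluster 3 cells. The 104 coding members were split into 35, 34 and 35 by distance from the joining segments. The near, middle and far sets led 29.2, 31.4 and 39.3% of naive-like cells of replicate 2. In cluster 3 of SFB-negative replicate 2 they led 20.3, 60.1 and 19.6%, and Ighv1-47 lies in the middle set. In the SFB-positive library they led 29.9, 34.6 and 35.4%.

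**Figure D5:**
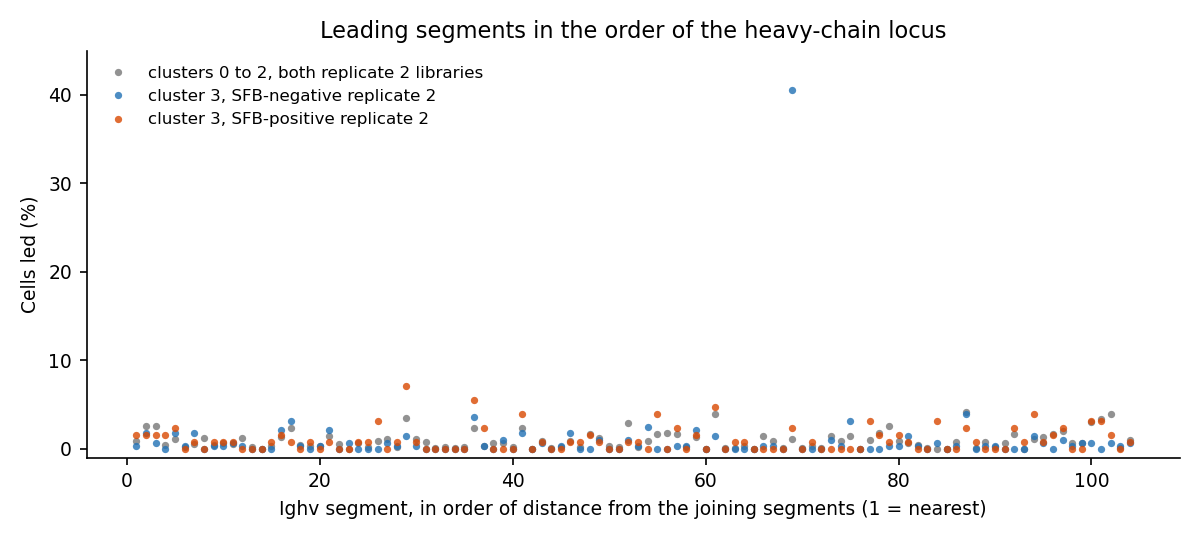
Percent of cells led (vertical axis) by each of the 104 coding Ighv segments, ordered by distance from the joining segments (horizontal axis), among cells led by any of them. Grey points are naive-like cells of both replicate 2 libraries, blue and orange points cluster 3 of the SFB-negative and SFB-positive replicate 2 library; all points but that of Ighv1-47 in the SFB-negative library lie below 10%.

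A set of segments known from other B-cell work was also read out. Ighv1-72, known from the response to the hapten NP, had 54 UMIs in table cells and led 23 of 1761 cells in SFB-negative and 13 of 1317 in SFB-positive replicate 2. Ighv5-2, the segment closest to the joining segments, had 41 UMIs and led 26 cells over all libraries. Ighv12-3 and Ighv11-2, both known from B-1 cells that bind phosphatidylcholine, had 8 and 5 UMIs and led 5 cells each. By UMIs these 4 ranked 35, 46, 87 and 95.

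Levels of single segments were then tested between the groups, with the counts of each library summed over its cells (edgeR quasi-likelihood test, Benjamini-Hochberg adjustment over all genes, limit 0.05). Over all table cells, 26 of the 123 segments passed the filter on low counts and 0 were called, and 0 of 12268 genes were called in all (percent called 0). At an unadjusted p under 0.05 there was also no segment, and DESeq2 called none. The median log2 difference of the 26 (SFB-positive minus SFB-negative) was -0.85, against -0.02 over all genes. Summed over all segments, the replicate numbers went in opposite directions. Ighv was at 8.05 (SFB-negative) and 10.2 CPM (SFB-positive) in replicate 1, and at 99.0 and 41.3 CPM in replicate 2. The filter kept 6 segments in cluster 0 and none in clusters 1 to 4, so those clusters give no test of a segment. Ighv1-47 itself did not pass it. It had UMIs in only 2 libraries, and 585 of its 602 UMIs in table cells were in SFB-negative replicate 2.

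Because replicate number goes with the software version, the antibody tags and the depth, a fit with replicate number as a block is given beside this. It called 3.61% of all genes, 2.68% as lower in SFB-positive libraries, and 3 of 26 segments, all lower. Ighv1-64 had 4 and 133 UMIs in SFB-negative replicates 1 and 2 and 0 and 63 in SFB-positive replicates 1 and 2, a log2 difference of -2.39 (SE 0.54, adjusted p = 0.00089, edgeR). Of the 133, 40 were in 1 plasma-like cell. Ighv10-1 had 1, 95, 2 and 34 UMIs in the same order, of which 64 and 23 were in 1 plasma-like cell of each replicate 2 library (-2.34, SE 0.63, adjusted p = 0.00952). Ighv2-9-1 had 1, 112, 0 and 60, of which 87 and 37 were in 1 cell of each (-2.13, SE 0.58, adjusted p = 0.0109). Their differences without the block were -2.30, -1.96 and -1.99 (adjusted p = 1.00 each). When each cell counted at most 1 UMI of a segment, the block fit called none of 16. In the block fit 8 of 36 light-chain variable segments were called (2 higher, 6 lower), as were 3 of 6 heavy constant genes and 1 of 4 light constant genes (all higher). Without the block none of these was called.

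With all 4 libraries, Ighv1-47 was called only in fits without the filter on low counts. In cluster 3 its log2 difference without the filter was -5.83 (SE 1.16, adjusted p = 0.00951, edgeR), in a fit that called 0.00549% of genes. With the block added it was -6.51 (SE 0.60), and DESeq2 gave -6.02 and did not call it. Over all table cells it was -5.72 without the filter (adjusted p = 0.125), in a fit that called 0.014% of genes. With no filter and the block, 5 segments were called over all table cells, Ighv1-47 among them. Ighv1-47 alone was called in cluster 3 and in cluster 4, where 12 of its 17 UMIs in SFB-negative replicate 2 were in 1 cell. Those 3 fits called 1.55, 0.741 and 0.834% of all genes. The 2 libraries at 0 make these values and their SE depend on the prior count of the fit, so they bound neither the fold nor its precision. All but 18 of its 762 UMIs over all barcodes came from 1 library, SFB-negative replicate 2. Whether the group difference differed between clusters 3 and 4 was tested with an interaction term, in which Ighv1-47 was the 1 segment that passed the filter. Its value was 1.99 (SE 1.54, adjusted p = 1.00), and 0.0622% of genes were called. Ighv1-47 passed the filter there only through SFB-negative replicate 2, with 214 UMIs in cluster 3 and 17 in cluster 4. The interaction therefore cannot decide whether the group difference of Ighv1-47 differs between these clusters.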

How the data were processed

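CD45+ Peyer's patch cells of 4 libraries (2 SFB-negative, 2 SFB-positive) were profiled with Chromium 3′ v3.1 gene expression kits, per the labels' protocols. The authors deposited raw UMI counts per gene and barcode, made with Cell Ranger 5.0.1 on mm10 per the submitters' processing notes and with 6.0.0 (replicate 1) or 7.0.0 (replicate 2) per the file headers. They also deposited a table of 22569 cells with cluster number, UMAP coordinates (a score with no unit) and percent of mitochondrial UMIs. Its UMI total per cell equalled that of the deposited counts in 2674 of 4050 and 6079 of 7731 cells of SFB-negative replicates 1 and 2. The same held for 2222 of 3408 and 5622 of 7380 cells of SFB-positive replicates 1 and 2. Why the others differ was not tested, and the deposited counts were used here. How the clusters were made and doublets treated is not given in the sources used here. No doublet caller was run here. Library totals over all barcodes were 7198366, 47273320, 6979187 and 83600989 UMIs (SFB-negative 1 and 2, SFB-positive 1 and 2).

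Ighv genes were matched by gene ID to GENCODE vM21. Each cell's leading segment was the Ighv gene with most UMIs. Shares have 95% exact binomial intervals. Thinning to 1000 UMIs per cell left out shallower cells. T-cell barcodes, the background, lie outside the table and have at least 2 UMIs of 6 T-cell markers and none of the B-cell markers used, among them Cd79a, Cd79b and Ms4a1. Counts were summed per library and cluster (at least 20 cells per library) and tested with edgeR 4.0.16 in R 4.3.3 (TMM scaling, robust quasi-likelihood fit, filterByExpr), without a block as the main fit. The SE given with an edgeR log2 difference is its absolute value divided by the square root of the F statistic. It is not an output of the fit. DESeq2 1.42.0, other scaling, no filter, capped counts, a replicate block and leaving out each library were tried as alternatives, as was leaving out cluster 6. Scripts were tested on simulated data.

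The members and marker lists were chosen with earlier results of these data known. Segments were named if they led a cluster and library by UMIs or cells, were among the 10 with most UMIs or leading most naive-like cells, were called by edgeR with or without the block, led most cluster 6 cells, or belonged to the fixed set Ighv11-2, Ighv12-3, Ighv5-2 and Ighv1-72. Values of some marker genes are not reported here. Single cluster 6 cells and shared pairs were named after their values were seen.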

Additional observations from a re-analysis of the deposited data

Results flagged for a closer look

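Barcodes that the deposited table leaves out also held Ighv UMIs. They numbered 2 in SFB-negative replicate 1, 787 in SFB-negative replicate 2, 6 in SFB-positive replicate 1 and 191 in SFB-positive replicate 2. T-cell barcodes outside the table, used as the background, had an Ighv UMI in 0.383% of 784 and 0.203% of 984 in replicate 2 (SFB-negative, then SFB-positive). In the SFB-negative library 2 of these 3 UMIs were of Ighv1-47. Of the left-out barcodes of SFB-negative replicate 2, 520 had a leading segment, and Ighv1-47 led 70 of them, 13.5% (95% exact binomial interval 10.6 to 16.7), with 159 UMIs. Igkv1-110 was the leading light segment in 28 of 37 of these, 75.7%, against 14 of 142 barcodes led by other segments, 9.86%, and Ighg1 the leading constant gene in 42 of 58. Rgs13 was at 300 against 171 CPM in the same sets. Of the 70 barcodes, 37 had at least 10% mitochondrial UMIs, as did 147 of 450 led by other segments.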

How the results depend on the processing

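Counts of called segments over all table cells were 0 without the block, 3 with the replicate block, 5 with the replicate block and no filter on low counts (an alternative chosen after seeing the data: Ighv1-47, Ighv1-64, Ighv10-1, Ighv2-9-1 and Ighv1-77), and 0 to 1 with each library left out. The 1 was Ighv1-47 without SFB-negative replicate 1, at -6.70 (adjusted p = 0.00303, edgeR). It passed the filter there through the 1 SFB-negative library left, which holds 744 of its 762 UMIs, so neither this call nor the like one in cluster 3 bears on stability. In cluster 3 the count was 1 with no filter on low counts, 1 with no filter and the replicate block, and 0 to 1 with each library left out; in cluster 4 it was 1 with no filter and the replicate block. The segment was Ighv1-47 each time, and in cluster 4 12 of its 17 UMIs in SFB-negative replicate 2 were in 1 cell. A fit that leaves 1 library in a group assumes that it varies like the other group. The labels do not say that the replicate number marks a shared batch. Over 12268 genes the deviations of same-numbered libraries from their group means had a correlation of 0.880, from 2 pairs. The difference in the chance that 2 cells share a leading segment (SFB-positive minus SFB-negative, percentage points) moved over all table cells from -0.59 to -5.13 when at least 2 UMIs were required (SFB-negative replicate 1 then had no such cell and SFB-positive replicate 1 had 2; replicate 2 had 6.05% and 1.83%) and to -0.79 when cells were thinned to 1000 UMIs. Requiring at least 2 UMIs gave 0.290 in cluster 1, -2.11 in cluster 2, -22.9 in cluster 3 (-14.7 as reported) and -46.2 in cluster 5 (-30.6 as reported). Thinning gave -1.95 in cluster 0, -3.32 in cluster 2 and -1.90 in cluster 4 (3.95 as reported, from 5 cells of SFB-positive replicate 1). Leaving out the cell with most Ighv UMIs in each library moved the difference in the leading segment's share of UMIs in cluster 6 from -11.4 to 13.1. This turn came from SFB-positive replicate 1, with 3 Ighv UMIs there (33.3%, then 50.0%); in replicate 2 the shares were 18.1% (SFB-negative) and 12.3% (SFB-positive). The cause of the other moves was not tested. All 46 alternatives for the percent of cells with an Ighv UMI stayed within the spread between replicates. That spread is set by the gap between replicate numbers (over all table cells, SD 16.2 without SFB and 11.8 with SFB). It is too wide for this to bear on stability. Replicate 1 had too few Ighv UMIs to show a dominant segment in any cluster but the naive-like ones, and why it had so few was not tested.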
